A study of Mus musculus with 12 samples.

Results

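The clustered protocadherins are 57 protein-coding genes out of the 55401 gene identifiers in the count files. They were chosen by symbol alone: every protein-coding gene whose GENCODE M21 symbol begins Pcdha, Pcdhb, Pcdhga, Pcdhgb or Pcdhgc and goes on with a number, or is one of the alpha C-type genes. The rule found 14 genes of the alpha cluster, 22 of the beta cluster and 21 of the gamma cluster. A further symbol, Pcdhgb8, was left out because the annotation lists it as a polymorphic pseudogene. All 57 lie on the plus strand of chromosome 18 (GRCm38). The alpha genes span 36930184 to 37187661, the beta genes 37264938 to 37524479 and the gamma genes 37661793 to 37841873. The symbol Pcdha11 is carried by 2 identifiers, which are kept apart here as ENSMUSG00000007440 and ENSMUSG00000102206.

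The libraries come from Neuro-2a, a mouse neuroblastoma line kept as an adherent culture. All cells received 1 µg of a GFP plasmid together with 3 µg of artificial microRNA plasmid built on miR30. In the 4 miScramble libraries that plasmid coded for a scramble control, in the 4 miRbmx libraries 3 plasmids against Rbmx were pooled, and in the 4 miRbmxl1 libraries 2 plasmids against Rbmxl1, so no value belongs to a single microRNA. GFP-positive cells were sorted after 48 hours, and stranded libraries were made from their total RNA after removal of ribosomal RNA. Rbmx, an X-linked RNA-binding protein gene, and its autosomal copy Rbmxl1 code for splicing regulators. In bulk RNA of this kind, fewer cells that express a gene and less of its RNA per cell cannot be told apart.

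Protocadherins are cell-surface adhesion proteins, and those of the clusters bind to themselves across cell contacts. In neurons each cell uses its own small set of them, which gives it a surface identity used in self-avoidance of dendrites and axons. In the alpha and gamma clusters, each variable exon has its own promoter and codes for the extracellular, transmembrane and first cytoplasmic parts, and it is spliced to constant exons that all genes of the cluster share. Beta genes have no constant exons. CTCF and cohesin bring a distal enhancer to the promoter that is chosen. The C-type genes at the end of the alpha and gamma clusters (Pcdhac1, Pcdhac2, Pcdhgc3, Pcdhgc4 and Pcdhgc5) are regulated apart from the others, and in many neurons they are expressed without random choice.

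This arrangement decides what a count per gene can see. Each alpha gene shares constant exons with the 13 other alpha genes, and each gamma gene with the 20 other gamma genes, so a read there has no single owner. Own exon, meaning annotated exon held by no other gene on the same strand, made up 8.56% to 61.1% of the exon length of alpha genes, 33.2% to 68.5% of gamma genes and 90.3% to 100% of beta genes. In addition, 4 small gene models (Gm37013, Gm37388, Gm38182 and Gm42416) lie wholly inside exons of other genes and own 0 bases. All 4 had 0 counts in each of the 12 libraries, which a counter that sets shared reads aside would give in any case. The zeros thus do not show whether reads were lost to the members they overlap. Among alpha genes, Gm42416 shares exon with Pcdha4, Gm37013 with Pcdha6 and Gm37388 with Pcdha7. Levels are therefore stated as counts per 1 M reads (CPM) per kb of own exon where genes are set side by side, and as plain CPM where a gene is compared between libraries.

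Similar variable exons are a further limit, because reads that align in several places were not assigned to a gene. The median share of 50-base words of own exon that also occur in another transcript was 14.8% for alpha genes, 3.48% for beta genes and 0.601% for gamma genes. The highest share was 29.2% in the alpha cluster, 11.99% in the beta cluster and 17.9% in the gamma cluster. Among the gamma genes most expressed here, Pcdhgb1 had 16.8% and Pcdhgb2 17.9%. Pcdhac2 and Pcdhgc3 had none.

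Depth was 43.1 to 52.2 M reads in genes per library, of which the 57 genes together took 9991 to 14335. A total of 3 counts, taken as the detection floor, equals 0.0574 to 0.0696 CPM, and counting error alone is covered by it. A minimum-count filter (filterByExpr, minimum count 10) left 53 of the 57 for testing: 11 alpha, 21 beta and 21 gamma. Pcdha4, Pcdha6, Pcdha7 and Pcdhb1 did not pass. The targeted genes moved as labelled: Rbmx was at 67.7 ± 7.15 CPM (SD, n = 4) in miScramble and fell by 1.30 on the log2 scale in miRbmx (adjusted p = 2.11e-07), and Rbmxl1 fell by 1.27 in miRbmxl1 (adjusted p = 3.21e-06), by edgeR's quasi-likelihood test with the replicate number as a block. Rbmx was higher in miRbmxl1, by 0.36 on the log2 scale (adjusted p = 0.0165, and 0.444 without the block). Of 14 genes of the sympathetic neuroblast list, 11 were tested and 0 were called in either knockdown, where 8.35% of all genes tested were called in miRbmx and 4.46% in miRbmxl1. Hand2 and Tubb3 stood at 348 and 356 CPM in miScramble, while Nefl and Nefm were at or near 0. Astrocyte and microglial or blood lists summed to at most 0.394 and 0.252 CPM in any library, and the fibroblast list to 0.975 to 2.89. The oligodendrocyte or Schwann list summed to 12.5 to 19.6 CPM, mostly Mbp, with Sox10 and Mag at or near 0. The endothelial list summed to 5.11 to 8.75, mostly Pecam1, with Cdh5 and Kdr at or near 0. None of these genes was called.

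In Neuro-2a cells a C-type gene led both the alpha and the gamma cluster, and levels in the beta cluster were more even. In miScramble, Pcdhgc3 stood at 14.3 ± 1.46 CPM per kb of own exon (SD, n = 4) and Pcdhac2 at 13.5 ± 0.673. These C-type genes were the highest of the 57, and their ranges over the libraries overlapped (12.9 to 15.7 and 12.7 to 14.1), so their order was not resolved. Pcdhgb1, a gamma B gene, came next at 5.83 ± 0.611 and its range of 5.06 to 6.55 overlapped with no other gene. Pcdha9 (3.37 ± 0.816), Pcdha8 (3.29 ± 1.12) and Pcdhgb2 (3.07 ± 0.120) followed within each other's spread.

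**Figure D1:**
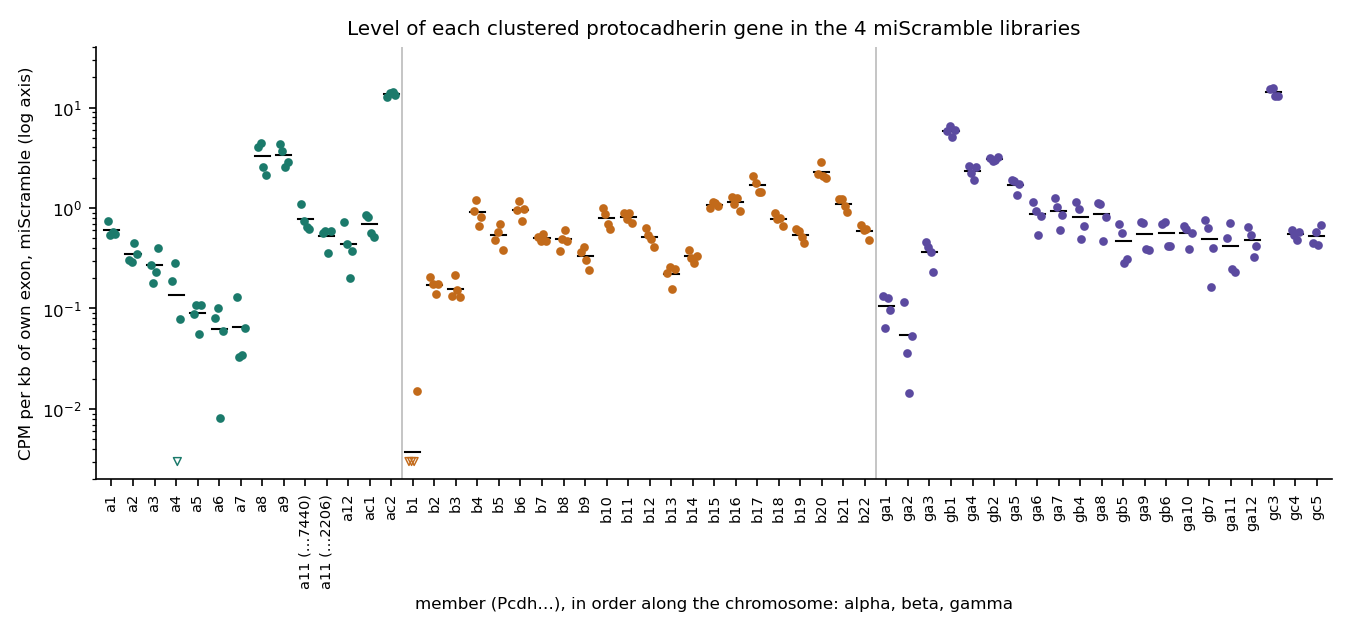
Level of each of the 57 genes in the 4 miScramble libraries, in CPM per kb of own exon on a log axis, in order along the chromosome (green alpha, orange beta, purple gamma; short bars are means; open triangles at the bottom edge are libraries with 0 counts). Pcdhac2 and Pcdhgc3 stand at 13.5 and 14.3 CPM per kb, and 19 of 22 beta genes lie between 0.221 and 2.27.

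Set against 12711 protein-coding genes tested in the same libraries (median 6.99 CPM per kb of own exon), Pcdhgc3 was above 70.0% of them and Pcdhac2 above 68.5%. Pcdhgb1, above 45.0%, and every other clustered protocadherin lay below the median of protein-coding genes.

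In the alpha cluster, Pcdhac2 held 56.4 ± 6.68% of the summed level per kb in miScramble, with 48.5, 53.4, 63.1 and 60.6% in replicates 1 to 4. Pcdha9 and Pcdha8 held 13.8% and 13.4%, so that these 3 genes made up 83.5% of the cluster. The other C-type gene, Pcdhac1, stood at 0.687 CPM per kb, close to Pcdha1 (0.605) and the Pcdha11 identifiers (0.773 and 0.523). Pcdha4, Pcdha5, Pcdha6 and Pcdha7, neighbours along the chromosome, were the lowest alpha genes. Pcdha5 was at 0.0902 ± 0.0251 CPM per kb. Pcdha6 had 8, 10, 1 and 7 counts in miScramble and Pcdha7 12, 3, 4 and 7, too few for a level. They reached at most 0.102 and 0.129 CPM per kb in any of these libraries. Pcdha4, with 494 bases of own exon, had 4, 6, 0 and 2 counts in miScramble, from 0 to 0.283 CPM per kb, so 2 of its 4 libraries were under the 3-count floor.

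In the gamma cluster, Pcdhgc3 held 39.9 ± 2.17% of the summed level per kb, Pcdhgb1 16.4% and Pcdhgb2 8.69%. Levels along the chromosome were not even. Pcdhga1, the first gamma gene, was at 0.105 ± 0.0318 CPM per kb. Pcdhga2 beside it had 13, 4, 2 and 7 counts in miScramble, too few for a level, and at most 0.116 CPM per kb in any of these libraries. Pcdhgb1, Pcdhga4, Pcdhgb2 and Pcdhga5 further along were at 1.71 to 5.83, and the last gamma A gene, Pcdhga12, was at 0.482. The remaining C-type genes, Pcdhgc4 (0.551 ± 0.0541) and Pcdhgc5 (0.532 ± 0.116), lie beside Pcdhgc3 and were far below it.

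The beta cluster had no gene of that kind. Pcdhb20 held 14.2% of its summed level per kb, Pcdhb17 10.6% and Pcdhb16 7.19%. The top of the cluster was Pcdhb20 at 2.27 ± 0.391 CPM per kb, Pcdhb17 at 1.69 ± 0.313 and Pcdhb16 at 1.14 ± 0.160, while Pcdhb21 (1.10) and Pcdhb15 (1.08) differed from Pcdhb16 by less than the spread. Pcdhb1, the first beta gene, had 2 counts in miScramble replicate 4 and 0 in the other 11 libraries. The next along, Pcdhb2 and Pcdhb3, were at 0.172 and 0.157 CPM per kb.

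Pcdhgc3, Pcdhac2 and Pcdhgb1 remained the 3 highest by mean when all annotated exon was used as the length, and 8 of the 10 highest genes stayed among the 10 highest. Without the 50-base words found elsewhere, a length chosen after the data were seen, 10 of 10 stayed.

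Replicates 3 and 4 differed from replicates 1 and 2 in every group, and some members differed strongly along with them. Pcdha8 was at 10.1, 10.9, 6.37 and 5.24 CPM in miScramble replicates 1 to 4, at 11.6, 10.6, 4.71 and 6.27 in miRbmx, and at 12.3, 9.64, 5.26 and 5.23 in miRbmxl1. All 6 libraries numbered 3 or 4 were below all 6 numbered 1 or 2, with a ratio of means of 0.508. The labels number the libraries as biological replicates and give no date or batch, and they do not say whether a number is shared between groups by design.

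A total of 9 of the 53 tested members had all 6 libraries of replicates 3 and 4 below all 6 of replicates 1 and 2, against 10.6% of all genes tested, and 0 had them all above, against 9.4%. The 9 were Pcdha8, Pcdha9 (ratio 0.622), Pcdha12 (0.507), Pcdhb17 (0.706), Pcdhb20 (0.669), Pcdhga9 (0.579), Pcdhgb6 (0.581), Pcdhga11 (0.466) and Pcdhgc3 (0.795). The median ratio over the 53 members was 0.808, and over all genes 1.02. These are descriptions without a test.

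Members of the same cluster did not share this pattern. Pcdhac2 had a ratio of 1.05 and 38.4, 42.4, 42.8 and 40.3 CPM in miScramble replicates 1 to 4. Pcdhgb1 (0.973), Pcdhgb2 (1.06), Pcdhgc4 (1.11) and Pcdhgc5 (1.17) were also near or above 1, whereas the gamma genes from Pcdhga6 to Pcdhga12 along the chromosome had ratios of 0.466 to 0.800 over all groups. Within miRbmx, Pcdhga6, Pcdhga7 and Pcdhga12 were above 1, at 1.12, 1.09 and 1.09. The share of Pcdhac2 in the alpha cluster was accordingly higher in replicates 3 and 4 of every group, at 60.6% to 63.4% against 47.2% to 53.4%. Comparisons between groups below use the replicate number as a block, which compares libraries of the same number.

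**Figure D2:**
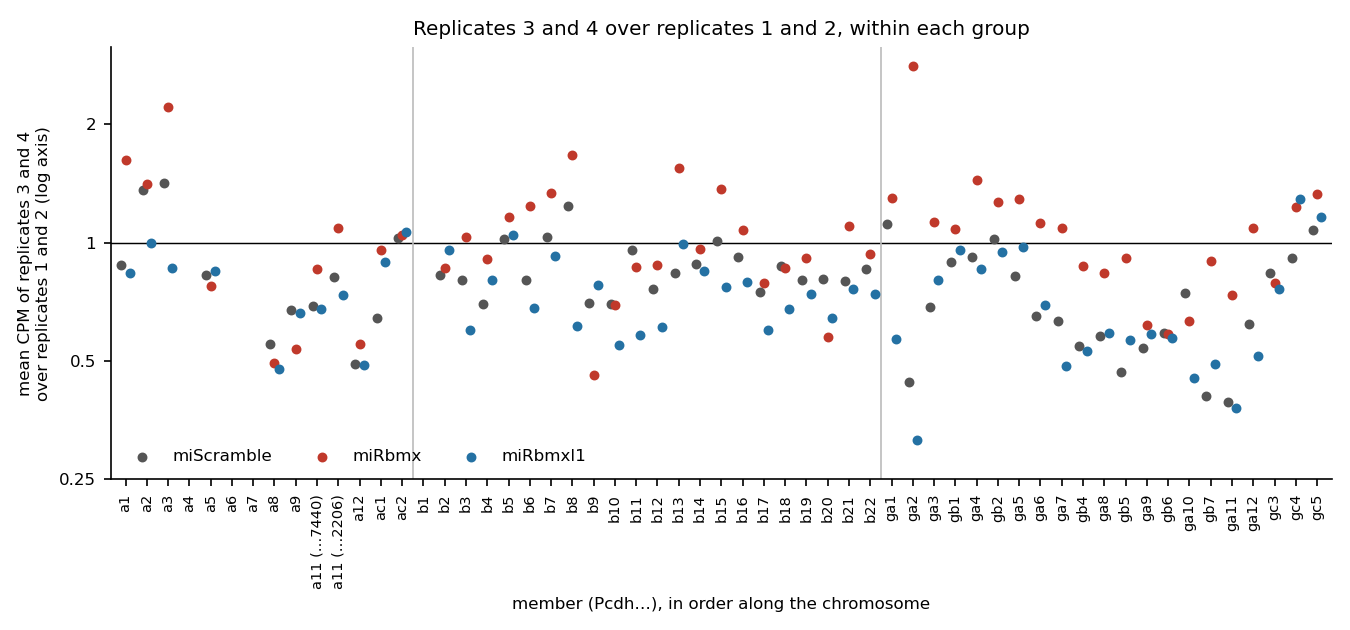
Mean CPM of replicates 3 and 4 over that of replicates 1 and 2 in each group (log axis), for the 53 tested members in order along the chromosome; grey is miScramble, red miRbmx and blue miRbmxl1. Pcdha8 lies near 0.5 in all 3 groups, Pcdhac2 near 1, and the gamma genes from Pcdhga6 to Pcdhga12 all below 1 in miScramble and miRbmxl1.

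With Rbmx knocked down, 1 of 53 tested members was called, Pcdhb19, while 8.35% of all 17569 genes tested were (4.19% lower). The median SE of the log2 fold change was 0.199 over the members and 0.102 over all genes. A change of a given size was thus less readily called in the members, which limits this comparison of shares. Pcdhb19 is a beta gene at 37496991 to 37504128, with 7138 bases of exon and no annotated gene overlapping it on either strand. It was at 4.37, 4.23, 3.71 and 3.22 CPM in miScramble and at 2.06, 2.53, 2.24 and 1.95 in miRbmx. Every miRbmx library was below every miScramble library.

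The mean of Pcdhb19 went from 3.88 ± 0.526 to 2.19 ± 0.252 CPM (SD, n = 4), a fold of 0.565 with a 95% interval of 0.443 to 0.720. On the log2 scale it fell by 0.82 ± 0.17 (SE), with an adjusted p of 0.0104 in edgeR's quasi-likelihood test, and it was lower in 4 of 4 same-numbered pairs. Without the block the log2 fold change was -0.82 and the adjusted p 0.266, and without replicate 3 in all groups the adjusted p was 0.0530. Fitted on replicates 1 and 2 alone, the value was -0.92 with an adjusted p of 0.148; fitted on replicates 3 and 4 alone, Pcdhb19 had -0.73 and 0.0323.

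In miRbmxl1, Pcdhb19 was at 2.48, 4.39, 2.62 and 2.47 CPM. Replicate 2 lay just above the highest miScramble library (4.37) and the other 3 below the lowest (3.22). Its log2 fold change of -0.40 ± 0.16 did not pass the threshold (adjusted p = 0.176). The direct difference between the knockdowns, -0.42 ± 0.17 with an adjusted p of 0.859 and a 95% interval of -0.78 to -0.07, was not called either. That interval is not adjusted for the number of genes tested.

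**Figure D3:**
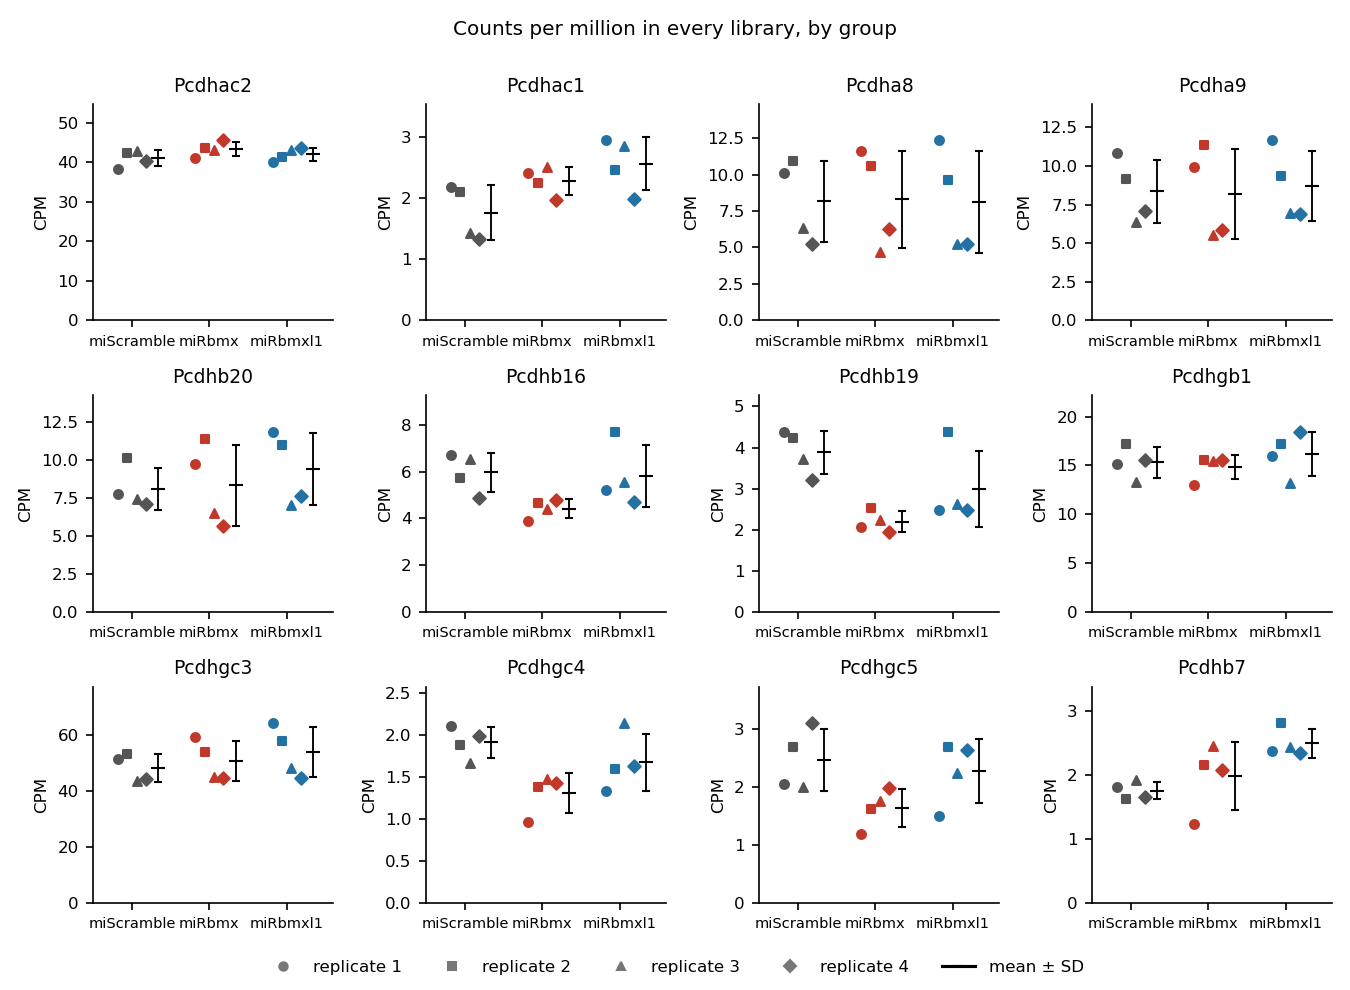
CPM of 12 named members in every library, by group, each panel with its own axis from 0; symbols mark replicate numbers, and the black mark is the mean ± SD of 4 libraries. Pcdhb19 is at 3.22 to 4.37 in miScramble and 1.95 to 2.53 in miRbmx, Pcdhac2 is at 38.4 to 45.5 throughout, and Pcdha8 separates by replicate number in all 3 groups.

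A further 3 members had all 4 miRbmx libraries below all 4 miScramble libraries without passing the threshold; with Pcdhb19 that makes 4 of 53, against 3.85% of all genes, and 0 had them all above (4.22% of all genes). The C-type gene Pcdhgc5 was at 2.05, 2.68, 1.99 and 3.10 CPM in miScramble and 1.18, 1.62, 1.75 and 1.97 in miRbmx, which gives -0.59 ± 0.18 on the log2 scale (adjusted p = 0.0543). Its neighbour Pcdhgc4 was at 2.12, 1.88, 1.67 and 1.99 against 0.963, 1.38, 1.47 and 1.42, or -0.56 ± 0.21 (adjusted p = 0.106). The groups of Pcdhgc5 nearly touch, at 1.97 and 1.99, and those of Pcdhgc4 at 1.47 and 1.67.

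Pcdhb16, a beta gene among the higher ones in miScramble, was at 6.71, 5.75, 6.55 and 4.89 CPM in miScramble and 3.87, 4.64, 4.40 and 4.78 in miRbmx. The log2 fold change was -0.43 ± 0.15 (adjusted p = 0.0875). Pcdhb16 and Pcdhgc5 passed the threshold, with Pcdhb19, in DESeq2 with the same block.

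Pcdhac2 and Pcdhgc3, the most expressed members, differed little between miScramble and miRbmx. Pcdhac2 was at 38.4, 42.4, 42.8 and 40.3 CPM in miScramble and 41.1, 43.5, 43.1 and 45.5 in miRbmx, with a fold of 1.06 and a 95% interval of 0.973 to 1.15. Pcdhgc3 was at 51.7, 53.2, 43.6 and 44.3 against 59.6, 54.0, 45.0 and 44.8, with a fold of 1.05 and an interval of 0.962 to 1.15. A gene on the other strand, BC037039, overlaps Pcdhgc3. Pcdhac2 and Pcdhgc3 were higher in 4 of 4 same-numbered pairs, their groups overlapped, and neither was called.

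Apart from Pcdhb16, with an interval of 0.595 to 0.925 wholly below 1, the other leading members had folds with intervals on both sides of 1. For Pcdha8 the interval was 0.836 to 1.19, for Pcdha9 0.812 to 1.14, for Pcdhb20 0.834 to 1.19, for Pcdhb17 0.824 to 1.16, for Pcdhgb1 0.853 to 1.12 and for Pcdhgb2 0.777 to 1.11. Their per-library values were as follows where not yet given. Pcdha9 was at 10.8, 9.14, 6.39 and 7.06 CPM in miScramble, 9.94, 11.4, 5.56 and 5.87 in miRbmx, and 11.7, 9.33, 6.96 and 6.91 in miRbmxl1. Pcdhb17 was at 9.79, 8.26, 6.79 and 6.71, at 8.14, 9.03, 6.88 and 6.68, and at 10.5, 9.98, 5.51 and 6.71 in the same order of groups. Both repeat the separation of replicates 3 and 4 and overlap between groups.

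Pcdhb20 was at 7.75, 10.1, 7.39 and 7.10 CPM in miScramble, 9.70, 11.4, 6.50 and 5.65 in miRbmx, and 11.9, 10.96, 7.05 and 7.64 in miRbmxl1. Pcdhgb1 was at 15.2, 17.2, 13.3 and 15.6, at 13.0, 15.5, 15.4 and 15.5, and at 15.9, 17.2, 13.2 and 18.5. Pcdhgb2 was at 8.71, 8.10, 8.35 and 8.81, at 5.93, 8.14, 8.21 and 9.64, and at 7.54, 10.3, 7.77 and 9.12. Within miRbmx, both gamma B genes were lowest in replicate 1.

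By cluster, the median log2 fold change in miRbmx was -0.06 over 11 alpha genes, -0.07 over 21 beta genes and -0.12 over 21 gamma genes, beside -0.00002 over all genes. Of the 53 members, 39 had values below 0 and 14 above, where 50.0% of all genes were below. With their larger SE, 8 members (15.1%) had an unadjusted p under 0.05, 7 lower and 1 higher, against 24.9% of all genes. The higher one was Pcdhac1, at 2.18, 2.09, 1.43 and 1.33 CPM in miScramble and 2.41, 2.25, 2.49 and 1.97 in miRbmx (log2 fold change 0.40 ± 0.18, adjusted p = 0.190). All 6 gamma B genes among the members had values below 0, from -0.46 to -0.01, with a median of -0.15. Pcdhgb8, left out as a polymorphic pseudogene, was at 0.01 ± 0.10.

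Under the other scalings, 37 to 39 of the 53 members were below 0, but without miRbmx replicate 1 only 27 were, with a median of -0.01. Fitted on replicates 1 and 2 alone, 45 of 55 were below 0, and on replicates 3 and 4 alone, 23 of 52. The gamma median rested on replicates 1 and 2, within which it was -0.51, whereas within replicates 3 and 4 it was 0.09. It turned to 0.0055 without miRbmx replicate 1 and 0.0043 without miScramble replicate 1. The summed level of the gamma cluster was 119.97, 119, 90.2 and 101 CPM in miScramble and 103, 112, 99.7 and 99.6 in miRbmx. Beta sums were 72.2, 72.6, 63.9 and 58.0 against 60.6, 66.4, 62.2 and 53.2, and alpha sums 72.7, 73.4, 64.1 and 62.9 against 71.4, 77.0, 64.3 and 68.5. All 3 sums overlapped between the groups. By same-numbered pairs, the beta sum was lower in miRbmx in 4 of 4, the gamma sum in 3 of 4 and the alpha sum in 1 of 4.

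**Figure D4:**
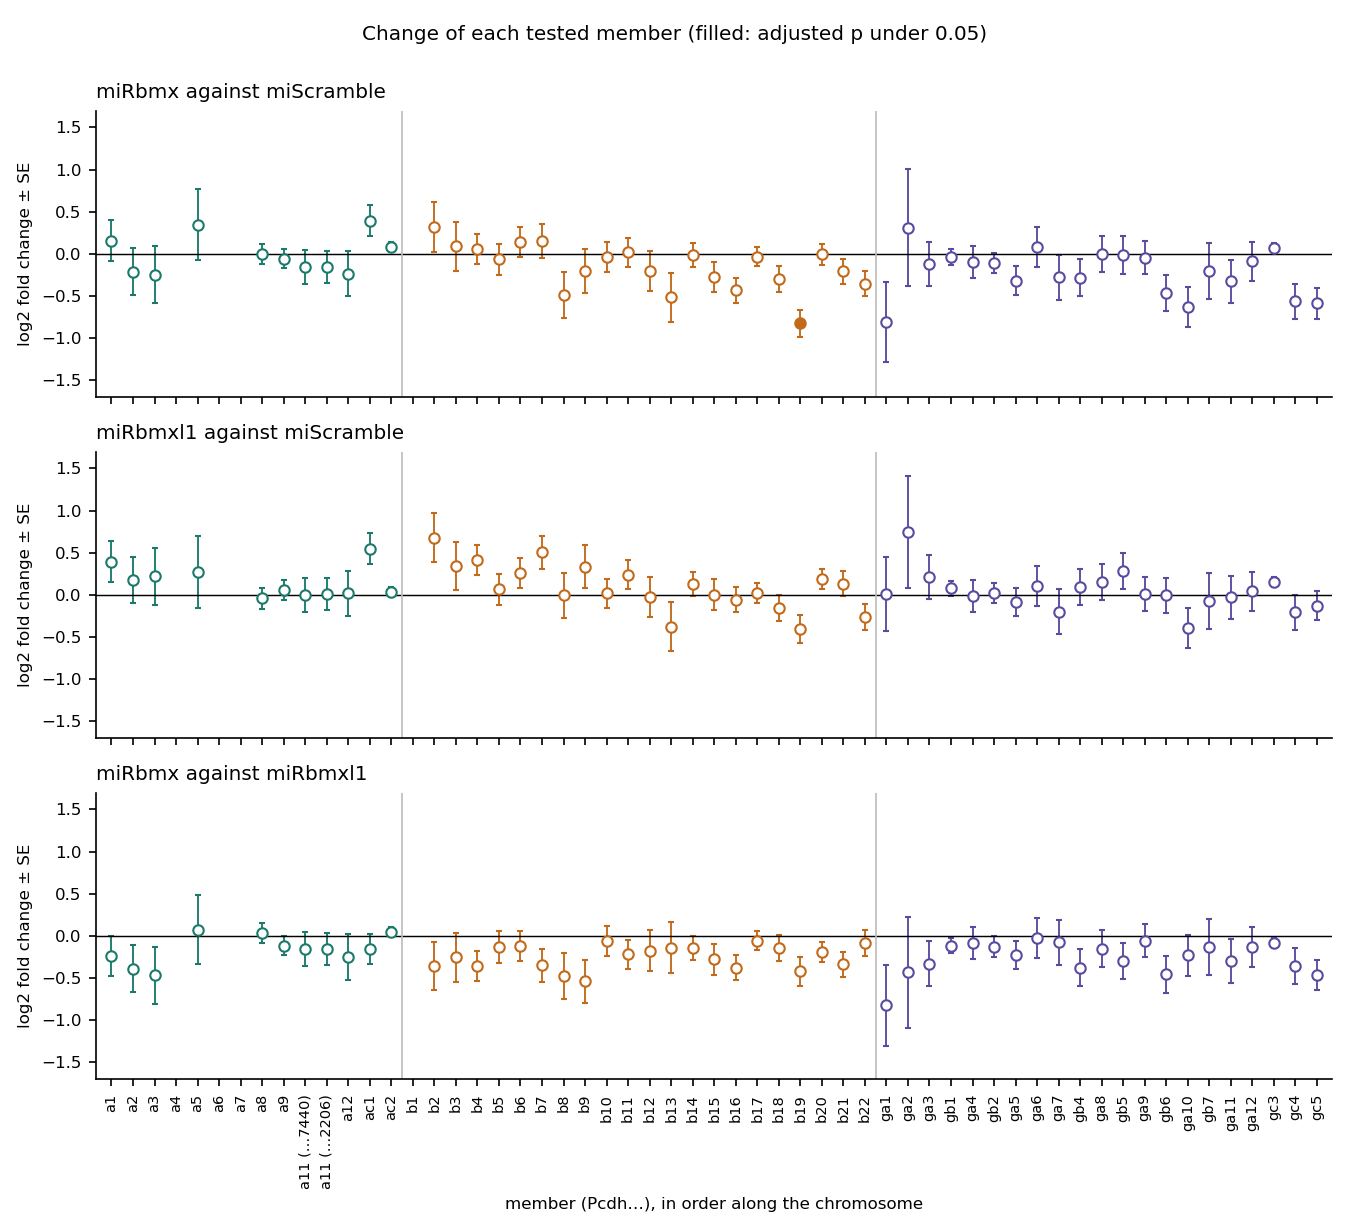
Log2 fold change ± SE of the 53 tested members, in order along the chromosome, for miRbmx and miRbmxl1 against miScramble and for miRbmx against miRbmxl1 (green alpha, orange beta, purple gamma; a gap marks a gene not tested). The only filled point, an adjusted p under 0.05, is Pcdhb19 in miRbmx at -0.82, and in the lowest panel 50 of 53 points lie below 0.

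With Rbmxl1 knocked down, 0 of 53 members were called by edgeR, against 4.46% of all genes, and DESeq2 also called 0. At an unadjusted p under 0.05 there were 6 members (11.3%, against 19.8% of all genes), 5 higher and 1 lower. The median SE was 0.197 over the members and 0.102 over all genes, which limits both comparisons. The lowest adjusted p, 0.0961, belonged to Pcdhac1, at 2.94, 2.46, 2.84 and 1.99 CPM (log2 fold change 0.55 ± 0.18). Pcdhac1 was higher than miScramble in 4 of 4 same-numbered pairs, and its groups overlapped through replicate 4.

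Pcdhb2 and Pcdhb7 had all 4 miRbmxl1 libraries above all 4 of miScramble, where 2.88% of all genes did, and neither was called. Pcdhb7 was at 1.82, 1.63, 1.91 and 1.66 CPM in miScramble, 1.23, 2.16, 2.46 and 2.08 in miRbmx, and 2.37, 2.81, 2.44 and 2.34 in miRbmxl1. Its log2 fold change in miRbmxl1 was 0.50 ± 0.20 (adjusted p = 0.161). In miRbmx its values lay on both sides of the miScramble range.

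Pcdhgc3, at 64.5, 57.9, 48.4 and 44.7 CPM in miRbmxl1, had a fold of 1.11 with a 95% interval of 1.02 to 1.21 and an adjusted p of 0.167. It was higher in 4 of 4 pairs. Pcdhac2, at 39.9, 41.4, 43.1 and 43.6, had a fold of 1.03 and an interval of 0.943 to 1.12. Pcdhgc4 (1.34, 1.60, 2.15 and 1.63) and Pcdhgc5 (1.49, 2.69, 2.24 and 2.63) overlapped with miScramble, as did Pcdhb16 (5.22, 7.73, 5.55 and 4.72).

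The cluster medians in miRbmxl1 were 0.06 for alpha, 0.07 for beta and 0.02 for gamma, beside 0.007 for all genes, and 36 of 53 members had values above 0 (34 to 39 under the other scalings, and 27 of 52 in replicates 3 and 4 alone). Without replicate 2 in all groups the direction turned, with 29 of 53 below 0 and a median of -0.04. Both knockdowns are compared with the same miScramble libraries, so their values are not independent of each other. The sums in miRbmxl1 were 77.6, 74.6, 66.1 and 66.3 CPM for alpha, 76.8, 89.5, 61.3 and 56.8 for beta, and 122, 137, 96.3 and 103 for gamma.

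The comparison of miRbmx with miRbmxl1 sets the knockdowns against each other, with the miScramble libraries in the fit for the spread and the block. It called 0 of 53 members by edgeR and 0 by DESeq2, where edgeR called 0.0114% of all genes, and 5 members (all lower in miRbmx) had an unadjusted p under 0.05, against 5.7% of all genes. Of the 53 members, 50 were lower in miRbmx, among them 21 of 21 beta and 21 of 21 gamma genes, where 51.2% of all genes were lower, with a median of -0.19 over the members and -0.004 over all genes. This count was 50 under each scaling, 36 without miRbmxl1 replicate 2 and 42 without miRbmx replicate 1. Fitted on replicates 3 and 4 alone, 23 of 52 members were lower, with a median of 0.03. By the sums above, the beta and gamma clusters were lower in miRbmx in replicates 1 and 2, whereas in replicates 3 and 4 the gamma sums were 99.7 and 99.6 against 96.3 and 103. No member had all 4 miRbmx libraries below all 4 miRbmxl1 libraries, as 0.552% of all genes did. Counts per gene in a cluster are not independent of each other, and no test was made of the cluster as a whole.

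The genes known to control promoter choice in the clusters were all expressed. Of 20 (CTCF, cohesin subunits and their loaders and releasers, DNA methyltransferases and demethylases, and Smchd1, Setdb1, Trim28 and Wiz), 20 were tested, 1 fell in miRbmx and 0 were called in miRbmxl1, near the 8.35% and 4.46% called among all genes tested. Ctcf stood at 86.9 ± 3.34 CPM in miScramble and Rad21, a cohesin subunit, at 459 ± 58.5. The one that fell was Mau2, the partner of Nipbl in loading cohesin, at 97.7, 84.2, 109.8 and 94.2 CPM in miScramble and 73.5, 76.0, 84.7 and 87.1 in miRbmx. Its log2 fold change was -0.26 ± 0.07 (adjusted p = 0.0333), lower in 4 of 4 pairs. The groups overlapped, and the call was kept in 14 of 25 alternative settings, with an adjusted p of 0.374 without the block.

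Among 18 genes for processing and signalling of protocadherins (cleavage by Adam10 and gamma-secretase, the kinases Ptk2, Ptk2b and Ret, and the WAVE complex for actin), 17 were tested. The kinase gene Prkca fell in both knockdowns, by 0.29 ± 0.06 on the log2 scale in each (adjusted p = 0.0136 in miRbmx and 0.0177 in miRbmxl1). It was at 71.0 to 82.0 CPM in miScramble, 54.8 to 67.2 in miRbmx and 51.2 to 67.4 in miRbmxl1, with no overlap with miScramble. In miRbmx, 3.85% of all genes tested lay below miScramble in this way. The Prkca calls were kept in 20 of 25 alternative settings in miRbmx and 16 of 25 in miRbmxl1. Without the block its adjusted p was 0.315 in miRbmx and 0.444 in miRbmxl1. An exon of Apoh on the other strand overlaps it, and the strand setting of the counting is not given.

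Of 12 non-clustered protocadherin genes, 4 were tested and 5 had 0 counts in all libraries. Pcdh1 stood at 712 ± 119.5 CPM in miScramble and was not called. Pcdh12, known from endothelial cells, rose in both knockdowns, from 5.63, 4.09, 2.49 and 2.26 CPM to 6.24, 5.57, 5.11 and 2.94 in miRbmx and 7.59, 5.50, 4.63 and 3.44 in miRbmxl1. The log2 fold changes were 0.50 ± 0.15 (adjusted p = 0.0476) and 0.58 ± 0.15 (adjusted p = 0.0382), higher in 4 of 4 pairs each. Pecam1, an endothelial marker, was also higher in 4 of 4 pairs in each knockdown without being called, at 0.28 ± 0.11 (adjusted p = 0.122) and 0.24 ± 0.11 (adjusted p = 0.229), and its part in the change of Pcdh12 was not tested. The groups of Pcdh12 overlapped, the calls were kept in 9 and 12 of 25 alternative settings, and without the block the adjusted p was 0.649 and 0.698.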

How the data were processed

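The 12 libraries are stranded total RNA-seq of sorted Neuro-2a cells. The authors deposited raw counts, 1 whole number per Ensembl gene. Per the submitters' processing notes, STAR 2.5.3a, HTSeq 0.6.1p1, cutadapt and the mm10 build were used; the annotation, counting mode and strand setting are not given in the sources used here. Rows that name no gene held 52.3% to 57.4% of each file, with 1.20% to 1.45% in ambiguous reads and 20.6% to 26.5% in reads with several alignments, and stayed out of library sizes and tests. Of 55401 identifiers, 55141 were found in GENCODE M21.

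Counts were fitted with edgeR 4.0.16 in R 4.3.3: filterByExpr (minimum count 10, minimum total 15; 17569 genes), TMM scaling, and a quasi-likelihood fit of group plus replicate number as a block on all 12 libraries. P-values were adjusted by Benjamini-Hochberg over all 17569 genes and called under 0.05. Intervals are 95% and unadjusted. CPM used TMM-scaled library sizes. The code was tested on simulated data. The members, lists, block and tests were chosen with earlier results of these data known. The block took the replicate numbers of the labels, since every group carries the same numbers 1 to 4. Same-numbered libraries of different groups deviated together: over 12 pairs, r across genes was 0.195 to 0.524. Pairs with different numbers, both 1 and 2 or both 3 and 4, gave 0.1 to 0.431 (12 pairs), which largely overlaps, and pairs of replicate 1 or 2 with 3 or 4 gave -0.573 to -0.129 (24 pairs). The values thus mainly separate replicates 1 and 2 from 3 and 4. The labels give the numbers but do not say that a number was shared between groups, so pairing by number is an assumption. No replicates looked like a duplicate deposit (chi-square per degree of freedom 9.62 or more). The labels call the replicates biological without saying how they were separated, and p-values measure the spread between these libraries.

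Members given with all values are those called in any contrast, the 3 highest per kb in each cluster, the C-type genes, and in each cluster the member with the smallest p in each knockdown; others were given by range and count, or by name with a summary value to show the order along a cluster. No sequence is printed. Alternatives were no block, DESeq2 1.42.0, RLE and upper-quartile scaling, other filters, leaving out libraries or replicate numbers, each pair of replicates alone, and a fit of only the groups compared.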

Additional observations from a re-analysis of the deposited data

Results flagged for a closer look

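In 51 groups of 4 libraries (17 genes in 3 groups), the lowest or highest library was compared with the rest of its group. Chance flags about 1 in 20 groups, and 2 were found to stand apart. Pcdhb19 was at 4.39 CPM in miRbmxl1 replicate 2, and at 2.47 to 2.62 in the other 3 libraries of that group. Pcdhgb1 was at 13.0 CPM in miRbmx replicate 1, and at 15.4 to 15.5 in the other 3.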

How the results depend on the processing

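The number of members called in miRbmx against miScramble was 1. It was 0 with no replicate block, 3 in DESeq2 (Pcdhb19, Pcdhb16 and Pcdhgc5), 2 with no filter on low counts (Pcdhb19 and Pcdhb16), 2 with a filter of at least 1 CPM in at least 4 libraries (Pcdhb19 and Pcdhgc5), 0 in replicates 1 and 2 alone, and 0 to 2 when libraries or replicate numbers were left out. It was 0 without replicate 3 and 2 without miRbmx replicate 4 or miRbmxl1 replicate 2. Pcdhb19 was called in 22 of 25 alternatives, and its log2 fold change ranged from -0.92 to -0.71. No member was called in the other contrasts under any of the 25 alternatives. The block changed no other call among the members.

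The beta median in miRbmx was -0.13 with no filter, -0.14 with the stricter filter, -0.17 in replicates 1 and 2 alone, and -0.1601 to -0.0575 when libraries were left out. The gamma median in miRbmx was -0.51 in replicates 1 and 2 alone and -0.378 to 0.0055 when libraries were left out, the beta median in miRbmxl1 was -0.15 in replicates 3 and 4 alone, and the alpha median in miRbmxl1 was -0.00532 to 0.176 when libraries were left out. The causes were not tested. Of 725 values of named members, 61 changed sign without being called in either setting. Over all genes, the calls in miRbmx were 1467 with the block and 1 without it, and in miRbmxl1 783 and 1. Constant exons and similar variable exons limit what can be seen for single alpha and gamma genes, and low counts limit single genes of all 3 clusters.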

Other observations

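Pcdhgb8, left out of the members as a polymorphic pseudogene in the annotation, lies in the gamma cluster and has 2499 bases of own exon. It stood at 8.87 ± 0.916 CPM (SD, n = 4) in miScramble, 8.97 ± 0.953 in miRbmx and 10.4 ± 0.687 in miRbmxl1. Its 3.55 CPM per kb of own exon in miScramble would place it after Pcdhgb1 and near Pcdha9. Neither knockdown was called for it by edgeR (log2 fold change 0.01 ± 0.10, adjusted p = 0.944, and 0.23 ± 0.10, adjusted p = 0.196).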
